A study of Rattus norvegicus with 2 samples.

Results

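The circular RNAs (circRNAs) described here come from genes of cell adhesion and axon guidance in rat spinal cord. They were chosen by the gene names in the deposited table: families of cadherins, protocadherins, neurexins, contactins, Ncam, Nrcam, Cadm, Dscam, teneurins and adhesion G protein-coupled receptors, with Slit, Robo, semaphorin, plexin, Unc5 and Eph families and the genes Dcc, Fat1, Fat3 and Fat4. The names Cdh7, Ephb1, Adgrb3 and those of the Slitrk family were left out of the choice. In all, 190 of the 11599 circRNAs of the table carried such a name, and they belonged to 58 host genes. No row used here carried a neuroligin, Lrrtm or Fat4 name.

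A circRNA is a closed loop made by splicing the end of an RNA segment to its own beginning, and it is counted by reads across that back-splice junction. Adhesion proteins hold neurons and their synapses together, either by pairing with the same protein on the next cell, as cadherins do, or with a partner, as neurexins and latrophilins do. Guidance works through secreted or membrane-bound cues, such as Slits, netrins, semaphorins and ephrins, which growing axons read through Robo, Dcc and Unc5, plexin and Eph receptors. Many of these genes are long and neuronal, and some of them stay active in the adult spinal cord and act at synapses.

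The study compared a bone cancer pain (BCP) group with a sham group. Rats of the BCP group received living Walker256 cells, a rat mammary carcinoma line passed through the peritoneal cavity of SD rats, into the marrow of the tibia. Sham rats received the same surgery with cells that had been boiled for 20 min, so both groups carried injected cell material. Each group is described as 3 animals kept for 21 days, and 1 library of each group was deposited, so every difference below is between 2 libraries, has no replicate check and gives no p-value. The sources used here do not say whether the animals were pooled, nor how old they were. The labels give the tissue as spinal cord cells, while the source label names the injected line.

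The sham library held 113033 back-splice reads and the BCP library 78836. Levels are in CPM, counts scaled to a common total of reads, and all intervals are 95% exact intervals that cover counting error only. No count of 1 occurs in the table, so a listed 0 may hide a few reads, and no fold is given against 0. In whole tissue, fewer cells of a type and less RNA per cell cannot be told apart. All 5 neuron marker genes of a list had circRNA reads (19 in sham and 31 in BCP over the list). The oligodendrocyte list had reads from 3 of 5 genes (11 and 45), the precursor list from 1 of 3 (0 and 4) and the astrocyte list from 1 of 5 (5 and 3), with Gfap, Aqp4, Slc1a3 and Aldh1l1 at 0. The microglia and macrophage list had reads from 3 of 6 genes (13 and 55), with Csf1r, Cx3cr1 and Aif1 at 0. The Schwann cell and ganglion neuron list had reads from 2 of 5 genes (0 and 19), and the vessel list from 1 of 4 (27 and 0). Lists of skeletal muscle and of epithelial genes that a carcinoma could bring were at 0 in both libraries. The part of these differences in the results below was not tested.

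Adhesion and guidance circRNAs held a small and similar share of both libraries. They took 1528 reads in sham, 1.35% of the library (1.29 to 1.42), and 1013 reads in BCP, 1.28% (1.21 to 1.37). The ratio of BCP over sham was 0.951 (0.877 to 1.03). Median-of-ratios scaling, which shifted every log2 ratio by -0.10, gave 0.884 (0.816 to 0.958), so the position of this interval relative to 1 depended on the scaling.

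Reads were concentrated in few genes. Robo1, Ncam2, Epha5, Adgrl2 and Adgrl3 supplied 718 of the sham reads (47.0%) and 417 of the BCP reads (41.2%). Only 3 circRNAs had at least 100 reads over both libraries. The other extreme was broad: 128 circRNAs had fewer than 10 reads and together held 299 reads in sham and 195 in BCP. Of those 128, 23 were listed in both libraries (18.0%), 67 in sham alone (52.3%) and 38 in BCP alone (29.7%). Over all circRNAs of the table with fewer than 10 reads these shares were 19.0%, 50.0% and 31.0%, which is close. Over all 190, 82 were listed in both libraries (43.2%, 36.0 to 50.5), 70 in sham alone and 38 in BCP alone, and 41.2% of the other circRNAs of the table were listed in both.

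The comparison of the design is that of BCP with sham. A circRNA met the size rule when it had at least 10 reads over both libraries, a ratio of at least 2-fold and an interval of that ratio that excluded 1. The read minimum kept 62 of the 190 circRNAs. Among them, 4 were higher in BCP, 7 were lower and 51 met neither side. The lower ones from Cdh18, Cntn1 and Pcdh10 were listed at 0 in BCP and so passed the read minimum through sham, the deeper library, alone. Among those listed in both libraries there were 4 higher and 4 lower. With a read minimum of 5 there were 10 of each, and with a minimum of 20 there were 1 and 4. Every circRNA added by the minimum of 5 had 0 reads in the other library, so it passed through the library where it was high. Shares over the whole table were not computed for these 2 minimums or for circRNAs listed in both libraries. Over the whole table the rule called 7.82% of 3502 circRNAs higher and 7.42% lower, and among the 62 these shares were 6.45% and 11.3%, which is near that background. The median log2 ratio was 0.05 for the 62 and 0.02 for all tested circRNAs. With median-of-ratios scaling the median of the 62 was -0.06.

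**Figure D1:**
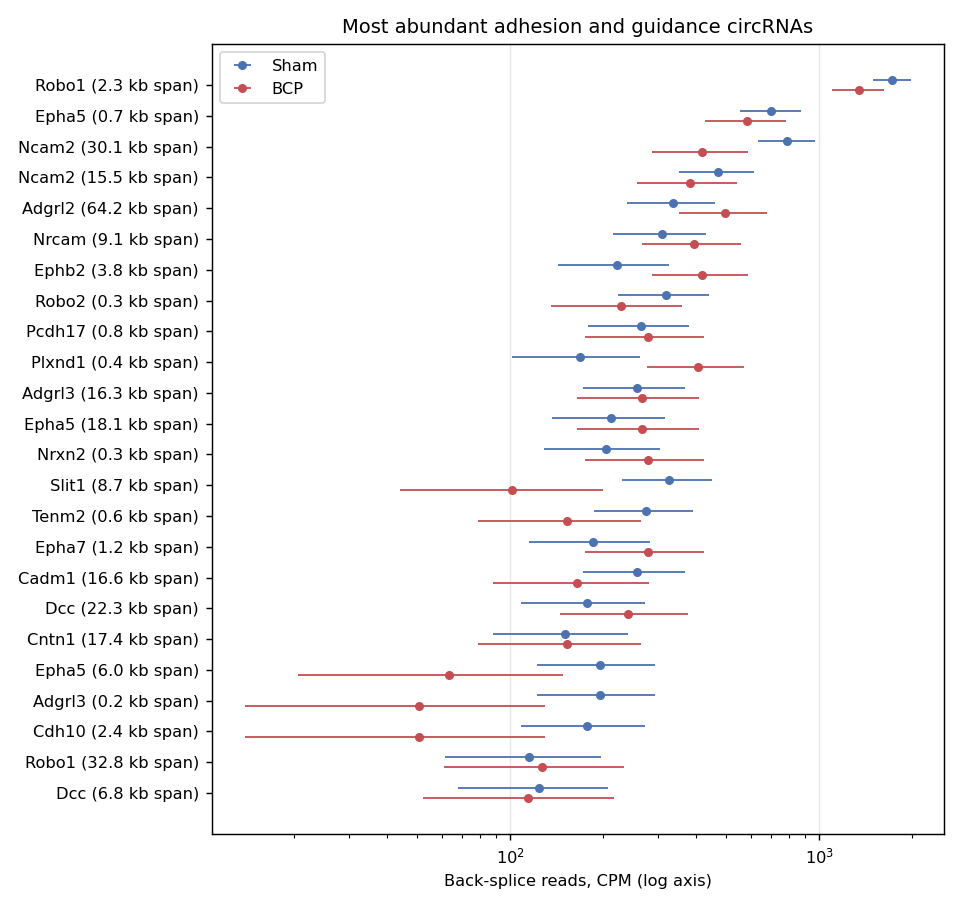
Level of the 24 adhesion and guidance circRNAs with most reads in the sham and BCP libraries, in CPM of back-splice reads on a log axis, labelled by host gene and genomic span. Bars are exact Poisson intervals of 1 library each. The sham and BCP bars of Slit1, Plxnd1 and the leading Ncam2 circRNA do not overlap, and the leading Robo1 circRNA lies above all others drawn.

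Robo receptors carry the repulsive Slit signal that keeps commissural axons from recrossing the midline. The most abundant circRNA of the whole selection came from Robo1 (chromosome 11, 10020678 to 10022991, build rn6, a span of 2314 bp). Its reads numbered 195 in sham and 106 in BCP, 1725 and 1345 CPM, and it ranked 37th and 57th among all circRNAs of the respective library. Its level was lower in BCP, with a ratio of 0.779 (0.609 to 0.992), but it did not reach the 2-fold of the size rule.

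A longer Robo1 circRNA that ended at the same right-hand site (9990203 to 10022991) had 13 and 10 reads, and one near the left end of the locus (9799899 to 9800225) had 8 and 3. The main Robo1 circRNA therefore supplied 89.0% of the sham reads of the gene (84.1 to 92.9) and 85.5% of its BCP reads (78.0 to 91.2). Robo2 had 7 circRNAs with 60 and 37 reads. Its leading one (11516554 to 11516880) had 36 and 18 reads. It spanned 327 bp, the same length as the small Robo1 circRNA at 9799899. Summed over both genes, Robo receptors had 279 and 161 reads, a ratio of 0.827 (0.677 to 1.01), and 0 of the 6 tested circRNAs met the size rule.

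Slits, the secreted ligands of Robo, showed the lowest ratio of any role group. The leading Slit1 circRNA (chromosome 1, 260968223 to 260976951) was counted 37 times in sham and 8 times in BCP, or 327 and 101 CPM. The sham level was 3.23-fold that of BCP (1.48 to 8.02), and the circRNA met the size rule as lower. Both Slit2 circRNAs were listed in sham alone, with 11 reads in all, and the single Slit3 circRNA in BCP alone, with 3 reads. The group had 50 and 11 reads and a ratio of 0.315 (0.148 to 0.614). Without the leading Slit1 circRNA it rested on 13 and 3 reads, with a ratio of 0.331 (0.0605 to 1.20). The difference between the Slit ratio and the Robo ratio was not tested.

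Dcc is the netrin receptor that draws axons towards the midline, and Unc5 receptors turn netrin into a repellent. Dcc hosted 6 circRNAs on chromosome 18 with 51 and 39 reads, of which 3 were tested. The leading one (66581616 to 66603887) had 20 and 19 reads, a shorter one with the same right-hand end (66597053 to 66603887) had 14 and 9, and the third (67074567 to 67077156) had 10 and 6. These 3 ratios lay between 0.860 and 1.36, and every interval included 1.

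Unc5d was one of the host genes that met the size rule as a sum over its circRNAs. Its 4 circRNAs held 8 reads in sham and 16 in BCP (2.87-fold higher in BCP, 1.16 to 7.74). The largest of them (chromosome 16, 67350584 to 67390225) had 3 and 7 reads and alone stayed outside the rule. Unc5c had 3 reads in each library. All netrin receptors together had 62 and 58 reads, a ratio of 1.34 (0.921 to 1.95).

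Plexins are the receptors of semaphorins, and Plxnd1 is the receptor of Sema3e. Its circRNA (chromosome 4, 147869323 to 147869704, 382 bp) was the most read of those that met the size rule as higher. Its 19 reads in sham and 32 in BCP were 168 and 406 CPM, a ratio of 2.41 (1.33 to 4.51). It also set the ratio of the plexin group, 2.21 (1.29 to 3.86) from 24 and 37 reads. Without it, Plxna2 and Plxna4a left 5 reads in each library.

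Semaphorins had few reads, 19 and 18 over 7 circRNAs of 5 genes. The one tested, from Sema5a, had 8 and 12 reads (2.15-fold, 0.808 to 6.07) and missed the size rule because its interval included 1. The group ratio of 1.36 (0.672 to 2.73) became 0.782 without this circRNA and 2.15 from circRNAs with reads in both libraries, so it has no settled direction. Sema3e and Sema4d were listed in sham alone with 2 and 6 reads, and Sema4f in BCP alone with 2.

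Eph receptors bind ephrins on neighbouring cells. The group had 199 and 150 reads, a ratio of 1.08 (0.868 to 1.34) that became 1.01 under median-of-ratios scaling and 0.997 under TMM, so it has no settled direction. Epha5 led it with 10 circRNAs spread over 323046 bp of chromosome 14. Its main circRNA (25672666 to 25673329, 664 bp) had 79 and 46 reads, 699 and 583 CPM.

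Another Epha5 circRNA (25859208 to 25865192) had 22 and 5 reads, so that sham was 3.07-fold higher (1.13 to 10.4), and met the rule as lower. A longer one from the same left-hand site (25859208 to 25877265) had 24 and 21 reads. At higher coordinates, a circRNA (25899869 to 25911503) had 3 and 9 reads, a ratio of 4.30 (1.07 to 24.7), and met the rule as higher. This last call was lost under median-of-ratios and TMM scaling. Reads of all Epha5 circRNAs summed to 143 and 90, a ratio of 0.902 (0.685 to 1.18), so the sum of the gene met neither side.

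The single Ephb2 circRNA (chromosome 5, 155139720 to 155143539) lay just outside the rule, with 25 and 33 reads and a level 1.89-fold higher in BCP (1.09 to 3.32). Epha7 had a circRNA with 21 and 22 reads, and the interval of its ratio was 0.788 to 2.87. The remaining Eph genes, Epha3, Epha4 and Ephb4, had 4 and 3, 2 and 0, and 0 and 2 reads.

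**Figure D2:**
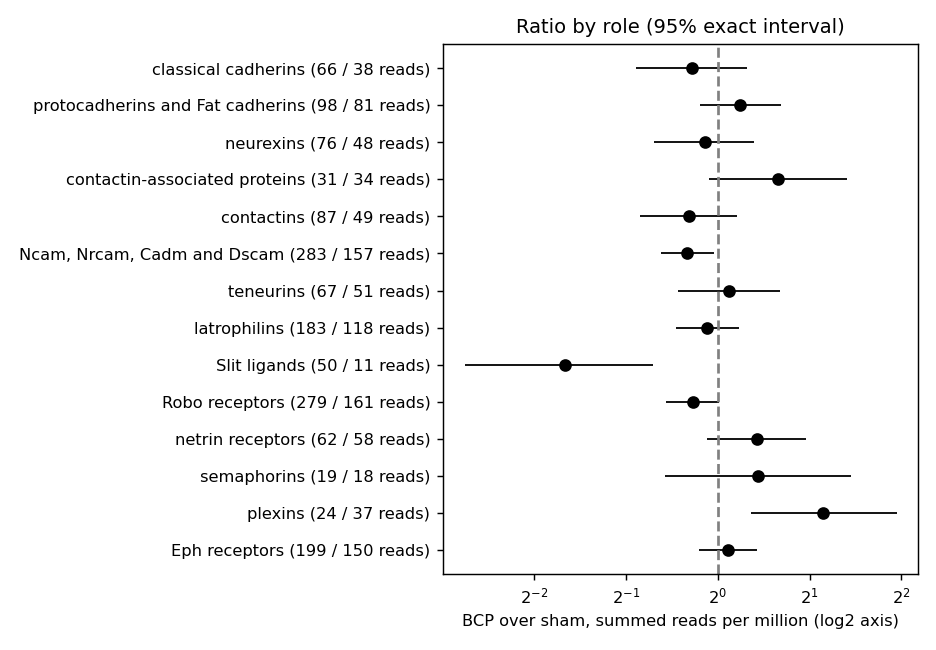
Ratio of BCP over sham of the summed CPM of each role group, on a log2 axis, for groups with at least 20 reads over both libraries. Bars are exact conditional intervals, and the labels give sham and BCP reads. The Slit group lies to the left of 1 and the plexin group to the right, with intervals that exclude 1, as does that of the Ncam, Nrcam, Cadm and Dscam group, and the other intervals drawn include 1.

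Among immunoglobulin-type adhesion genes, Ncam2, which is best known from olfactory axons, had the most reads. Its 10 circRNAs summed to 173 and 85 reads, a ratio of 0.704 (0.537 to 0.918) under 2-fold. The main one (chromosome 11, 20501666 to 20531756) had 89 and 33 reads, 787 and 419 CPM. Its ratio of 0.532 (0.345 to 0.801) put it just outside the rule. The second (20634697 to 20650229) had 53 and 30 reads (0.812, 0.501 to 1.29).

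Nrcam, an adhesion protein of nodes of Ranvier and growth cones, had a main circRNA (chromosome 6, 64852693 to 64861750) with 35 and 31 reads (1.27, 0.757 to 2.12). Cadm1, a synaptic adhesion molecule, had one with 29 and 13 reads (0.643, 0.307 to 1.28). Dscam and Dscaml1 had circRNAs with 10 and 7 and with 9 and 10 reads. The group of Ncam, Nrcam, Cadm and Dscam genes had a ratio of 0.795 (0.650 to 0.970), which became 0.916 (0.726 to 1.15) without the main Ncam2 circRNA. None of its 8 tested circRNAs met the size rule.

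Contactins are membrane-anchored partners of these proteins on axons. Cntn1 had 7 circRNAs, and the most read (chromosome 7, 133457254 to 133474655) had 17 and 12 reads (1.01, 0.441 to 2.25). Another Cntn1 circRNA (133484851 to 133499407) met the rule as lower, with 10 reads in sham against 0 in BCP. It passed the read minimum through sham alone, and with 1 read in BCP in place of the 0 its interval would include 1 (0.00330 to 1.01) and the call would end. From the same left-hand site, a shorter circRNA (133484851 to 133492534) had 0 reads in sham against 4 in BCP. Cntn3 had 3 circRNAs with 10 reads in sham and 0 in BCP, so it met the rule as a sum, again through sham alone, and 1 read in BCP would end this call too. In the contactin group, 12 of 19 circRNAs (63.2%) were listed in sham alone, as were 36.4% of all circRNAs of the table. Only 6 of the 19 had at least 10 reads. Of all circRNAs with fewer than 10 reads, 50.0% were listed in sham alone. The ratio of the group, 0.808 (0.557 to 1.16), became 1.43 (0.927 to 2.22) from circRNAs with reads in both libraries. Over the whole table that restriction drops a larger share of sham reads than of BCP reads.

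The contactin-associated proteins Cntnap4, Cntnap5a, Cntnap5b and Cntnap5c had 31 and 34 reads over 14 circRNAs. A Cntnap5c circRNA (chromosome 13, 7098227 to 7137175) had 2 and 9 reads, a ratio of 6.45 (1.34 to 61.4), and met the rule as higher. The other Cntnap5c circRNAs summed to 10 and 2 reads, so the gene as a whole had 12 and 11. The Cntnap5 genes are related copies, and the sources used here do not say how reads shared between them were counted.

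Neurexins are presynaptic adhesion proteins that bind neuroligins and latrophilin partners. They had 76 and 48 reads, a ratio of 0.906 (0.617 to 1.32), with 0 calls among 3 tested circRNAs. A 302 bp Nrxn2 circRNA (chromosome 1, 221828996 to 221829297) had 23 and 22 reads. Nrxn3 had 6 circRNAs of fewer than 10 reads each, 22 and 7 in all.

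Teneurins and latrophilins (Adgrl genes) bind each other across the synapse. Teneurins had 67 and 51 reads (1.09, 0.743 to 1.59) and no call. Tenm2 had a 647 bp circRNA (chromosome 10, 21189518 to 21190164) with 31 and 12 reads and a 95350 bp one (21041234 to 21136583) with 7 and 11 reads. Tenm3 and Tenm4 had 13 and 8 reads, respectively, in each library.

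Latrophilins had 183 and 118 reads (0.925, 0.727 to 1.17). The leading Adgrl2 circRNA (chromosome 2, 258868022 to 258932200) had 38 and 39 reads (1.47, 0.917 to 2.36). Adgrl3, with 12 circRNAs the gene with most, had a leading one (chromosome 14, 28519958 to 28536253) with 29 and 21 reads. A 234 bp Adgrl3 circRNA (28856160 to 28856393) had 22 and 4 reads, 195 and 50.7 CPM. Sham was 3.84-fold higher (1.30 to 15.3), and this circRNA met the rule as lower. A longer circRNA from the same left-hand site (28856160 to 28967704) had 7 reads in sham against 0 in BCP. Adgrb1 had 4 and 2 reads.

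Classical cadherins bind their like on the next cell through calcium-dependent contacts. Cdh10 had a circRNA (chromosome 2, 69589316 to 69591756) with 20 and 4 reads, 177 and 50.7 CPM. Sham was 3.49-fold higher (1.17 to 14.0), and the gene also met the rule as a sum, with 23 and 4 reads. Cdh18 had calls on both sides. Its 478 bp circRNA (74360704 to 74361181) had 11 reads in sham against 0 in BCP, a call that 1 read in BCP would leave in place (0.00303 to 0.897), while another (74585593 to 74617289) had 2 and 8 reads, a ratio of 5.74 (1.14 to 55.4). The gene summed to 15 and 10 reads and met neither side. Cdh2, the neural cadherin, had 3 circRNAs with 18 and 15 reads, and Cdh12 had 10 and 5.

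Protocadherins, a larger cadherin branch, had Pcdh17 as their most read gene, with 50 and 39 reads in 3 circRNAs. Pcdh10 had 1 circRNA (chromosome 2, 136997543 to 137007086) with 10 reads in sham against 0 in BCP. It met the rule as lower, but passed the read minimum through sham alone, and 1 read in BCP would end the call. Pcdh19 on chromosome X had 17 and 18 reads. A pair of circRNAs named for Pcdhac1 was listed in BCP alone with 5 and 4 reads. That gene belongs to the clustered protocadherins, whose transcripts share their last exons, so the gene of origin is uncertain. Fat1 had 7 and 3 reads and Fat3 had 11 and 10. Protocadherin and Fat genes together had 98 and 81 reads, a ratio of 1.19 (0.872 to 1.61).

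**Figure D3:**
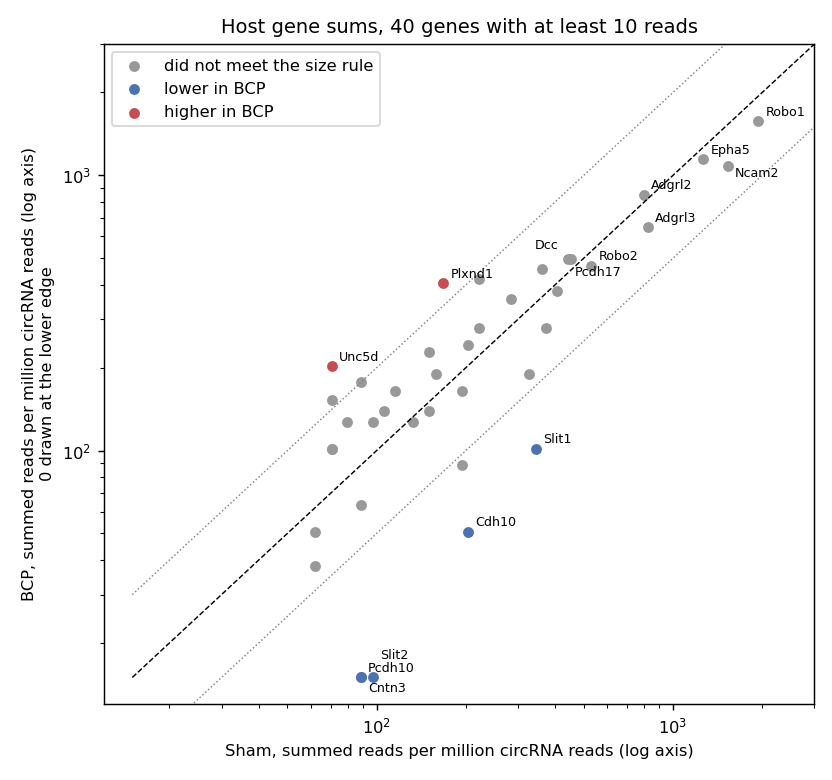
Summed CPM of all circRNAs of each host gene in sham (x) and BCP (y), on log axes, for the 40 genes with at least 10 reads. The dashed line marks equal levels, the dotted lines 2-fold, and 0 is drawn at the lower edge. Plxnd1 and Unc5d met the size rule as higher, and Slit1, Cdh10, Slit2, Pcdh10 and Cntn3 as lower.

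Summed over the circRNAs of a gene, 40 of the 58 host genes had at least 10 reads. Of these, 2 met the rule as higher in BCP and 5 as lower, while over all 2144 host genes tested 8.82% were higher and 8.58% lower. The 5 lower genes were Slit1, Cdh10, Slit2, Cntn3 and Pcdh10, and the last 3 of these had 0 reads in BCP. With 1 read in BCP for each of their circRNAs in place of the 0, a setting chosen after seeing the data, none of these 3 sums met the rule. When only circRNAs with reads in both libraries were summed, Slit1 and Cdh10 met the rule as lower and Plxnd1 and Unc5d as higher. Cdh18 (2 and 8 reads) and Cntnap5c (2 and 9) joined them as higher. Only Unc5d had 2 such circRNAs, so each of the other calls repeats that of 1 circRNA. For this restriction the share over all host genes was not computed. The full sums of Cdh18 (15 and 10 reads) and Cntnap5c (12 and 11) met neither side. Ratios lay below 1 for 20 of the 40 genes and above 1 for 20. Of all 58 genes, 44 had reads in both libraries (75.9%), 8 in sham alone (13.8%) and 6 in BCP alone (10.3%). Over all 3865 host genes of the table these shares were 64.1%, 21.2% and 14.8%.

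Within genes, the ratios of single circRNAs lay on both sides of 1, most with intervals that included 1. Of 14 host genes with at least 2 tested circRNAs, 13 had log2 ratios on both sides of 0, and the exception was Pcdh17, whose 3 ratios were all above 0 (0.03 to 0.52) but ran from -0.07 to 0.42 with median-of-ratios scaling. That scaling also left 13 genes with both sides, since the 4 ratios of Adgrl3 then all lay below 0 (-1.91 to -0.04). The share over all host genes of the table was not computed, so neither count is read as a trait of these genes. The widest spreads were in Cdh18 (-4.00 to 2.29), Cntn1 (-3.87 to 1.05) and Epha5 (-1.51 to 1.96). The values of Cdh18 and Cntn1 rest on a circRNA listed at 0 in BCP, and their size depends on the pseudocount of 0.5 reads.

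**Figure D4:**
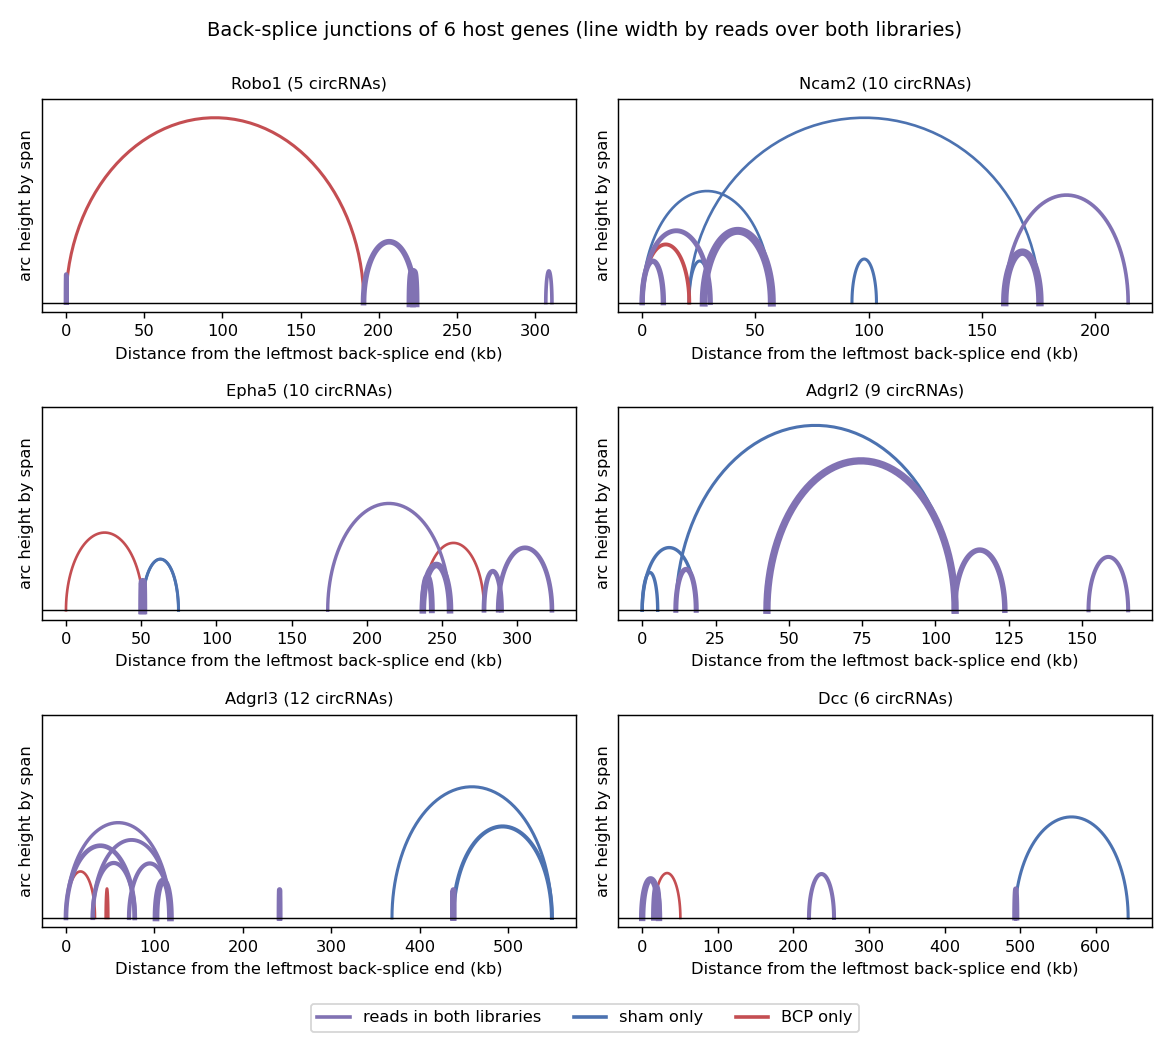
Back-splice junctions of Robo1, Ncam2, Epha5, Adgrl2, Adgrl3 and Dcc, drawn as arcs from the left to the right end of each circRNA, in kb from the leftmost end of the gene's circRNAs. Line width grows with reads over both libraries, arc height with span, and colour gives the library that listed the circRNA. Thick arcs, the most read circRNAs, are listed in both libraries, and several share an end with thinner arcs.

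Many circRNAs used the same back-splice sites. Of the 190 circRNAs, 117 (61.6%, 54.3 to 68.5) shared a left or right end with another circRNA of the table, close to the 59.8% of the other circRNAs. Within the same gene, 66 sites in 31 genes served at least 2 circRNAs, and 54 of these served exactly 2. The busiest sites served 4. One was the left end at 20474484 in Ncam2, with circRNAs of 8 and 11, 11 and 2, 0 and 6, and 2 and 0 reads. The other was the right end at 28536253 in Adgrl3, with 29 and 21, 3 and 5, 4 and 2, and 2 and 2 reads. At 10 places in 9 genes, the left end of one circRNA lay 33 to 236 bp inside the right end of its neighbour at lower coordinates. An example is Robo1, where a BCP-only circRNA ended at 9990360 and the next began at 9990203.

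Pairs of tested circRNAs at a common end show how the reads of that site were divided. There were 12 such pairs in 10 genes, and all 12 pairs had overlapping intervals between the libraries. The longer circRNA took the larger share in BCP in 8 pairs and in sham in 4. At the Epha5 site (25859208) the longer circRNA took 52.2% of the reads of the pair in sham (36.9 to 67.1) and 80.8% in BCP (60.6 to 93.4). At the Ncam2 site (20474484) the longer took 57.9% (33.5 to 79.7) and 15.4% (1.92 to 45.4). Robo1 was the most precisely measured pair, with the 32789 bp circRNA at 6.25% (3.37 to 10.5) in sham and 8.62% (4.21 to 15.3) in BCP.

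**Figure D5:**
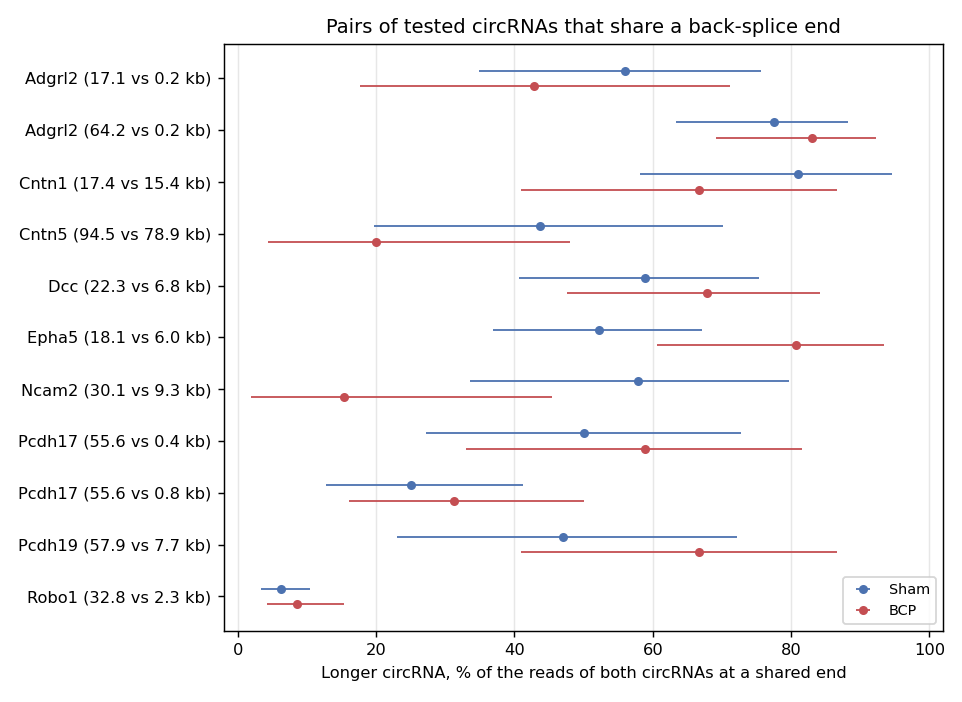
Share of the longer circRNA among the reads of 2 tested circRNAs that share a back-splice end, in percent, for 11 of the 12 pairs in sham and BCP. Bars are exact binomial intervals. The intervals of the libraries overlap in every pair drawn, with the widest gaps between points in Ncam2 and Epha5.

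Pcdh17 gave a simple example of nested use. A 365 bp circRNA at the left (67588477 to 67588841, chromosome 15) had 10 and 7 reads, an 820 bp one at the right (67643250 to 67644069) had 30 and 22, and a 55593 bp circRNA joined their outer ends with 10 and 10 reads. In Adgrl2, a 173 bp circRNA (258932028 to 258932200) with 11 and 8 reads sat at the right end of the leading 64179 bp circRNA and at the left end of another of 17131 bp.

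The genomic span of a circRNA is the distance between its ends, introns included. The median span of the 190 was 15914.5 bp, against 9642 bp for the rest of the table. Spans of 10 to 100 kb made up 53.2% of them (45.8 to 60.4) and 46.0% of the rest. Spans over 0.5 kb and under 10 kb made up 31.1% (24.6 to 38.2) and 45.0%. At the extremes, 19 circRNAs of the 190 spanned at most 500 bp (interval of the share 6.13% to 15.2%), against 6.06% of the rest, and 11 (5.79%, 2.93 to 10.1) spanned at least 100 kb, against 2.96%. CircRNAs of a gene share ends and are not independent, so these intervals are too narrow, and exon content was not analysed here. The longest, from Tenm2, spanned 197404 bp with 0 and 2 reads, and the shortest, also from Tenm2, 147 bp with 0 and 5 reads.

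A single circRNA was listed for 18 of the 58 host genes (31.0%) and for 47.6% of all 3865 host genes of the table. Chromosome 11, with Robo1, Robo2, Ncam2, Cadm2, Dscam and Epha3, held 29 of the circRNAs and 479 of the sham and 260 of the BCP reads.

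Other genes of the same pathways, which the choice by name did not take, gave a similar summed ratio. A list of 97 gene names, among them netrins, ephrins, catenins, neuropilins and the receptor phosphatases of synapses, had circRNAs from 37 genes. Some genes, such as the nectins, were entered under an old and a new name. The list also held Celsr names and older names (Lphn, Bai and Gpr) of adhesion G protein-coupled receptors. These receptor names were not among the 37. These 117 circRNAs held 676 and 433 reads, a ratio of 0.918 (0.812 to 1.04). Of 30 tested, 2 were higher in BCP (6.67%) and 1 lower (3.33%), against 7.82% and 7.42% over the whole table. Both higher ones came from Sdk1, an adhesion gene of synaptic layers, with 28 and 43 reads (2.20-fold, 1.34 to 3.68) and with 4 and 10 reads (3.58-fold, 1.03 to 15.7). Ntng1, a netrin relative, had 36 and 17 reads for its leading circRNA (0.677, 0.357 to 1.24).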

How the data were processed

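Ribosomal RNA was removed from spinal cord RNA and linear RNA with RNase R (16 units, 15 min) before random-primed, strand-marked libraries were made, per the labels' protocols. The authors deposited raw back-splice counts per circRNA and a column headed TPM, which equals the count scaled to the column total and is therefore CPM (within 0.001 for counts above 0). Per the submitters' processing notes, reads went through CASAVA 1.8 and BWA with build rn6. The sources used here name no circRNA caller, read minimum or annotation.

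Names were taken from the gene field. Names spanning over 3 Mb of a chromosome were skipped, which removed 0 of the names chosen here. Of the 58 host names, 56 matched a RefSeq symbol and 2 a synonym (assembly GRCr8, used for names alone). Ratios of counts scaled to column totals have conditional exact binomial (Clopper-Pearson) intervals, levels have exact Poisson intervals, and log2 ratios have a pseudocount of 0.5 reads. With 1 library per group no test across samples could be made. The genes named are the 12 most read circRNAs, all that met the size rule, the most read of each role group, the host genes that met the rule and those with most circRNAs or reads. Others were named after their values were seen. A few items are not reported here. The members and lists were chosen with earlier results of these data known. Alternatives were scaling by TMM (edgeR 4.0.16) or by median of ratios (DESeq2 1.42.0), other read minimums, folds and pseudocounts, and restricted sets of circRNAs. The steps were tested on simulated data (Python 3.11.15, scipy 1.17.1).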

Additional observations from a re-analysis of the deposited data

How the results depend on the processing

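With 1 library per group no library can be left out, and no paired analysis was possible because each group has a single library. Median-of-ratios and TMM scaling shifted all log2 ratios by -0.10 and -0.12. They gave summed ratios of 0.884 and 0.876 (0.809 to 0.950 for TMM), medians of the log2 ratio of -0.056 and -0.068, and Robo ratios of 0.769 (0.630 to 0.937) and 0.763 (0.624 to 0.930). With a read minimum of 5, 10 circRNAs were higher, and those added by this setting were listed in BCP alone. With 20, 1 was higher and 4 were lower, and 2 host genes were lower. With a 3-fold rule, 0 host genes were higher. With only circRNAs listed in both libraries, 4 circRNAs and 2 host genes were lower and 4 host genes were higher. Of these host genes only Unc5d had 2 such circRNAs, and the others rest on 1 each. Shares over the whole table were not computed for these minimums, the 3-fold rule or this restriction. Over the whole table, circRNAs listed in 1 library alone held 15.9% of the sham reads and 12.4% of the BCP reads. Keeping only circRNAs listed in both, with the totals unchanged, therefore raises ratios over the table as a whole. Ratios in that setting were 0.801 for Robo, 0.811 (0.656 to 1.00) for the Ncam group, 1.43 for contactins and 2.55 (1.06 to 6.54) for contactin-associated proteins. The last value rests on 2 circRNAs, from Cntnap5a (7 and 7 reads) and Cntnap5c (2 and 9). Without its most read circRNA, chosen after seeing the data, the ratio was 0.916 for the Ncam group, 0.331 for Slits and 1.43 for plexins (0.330 to 6.23). Of adhesion and guidance circRNAs with at least 10 reads, 95.2% were listed in both libraries, near the 92.6% of all circRNAs with as many reads. Beyond scaling and read minimums the causes were not tested. The other 111 recomputed values stayed within set limits, which were 1.5 times for a count, 0.1 for a median log2 ratio and, for a ratio, the interval of the reported one. Some of the 111 could not change and say nothing on stability. The summed ratio uses no read minimum, fold or pseudocount, the counts use no pseudocount and the median uses no fold. Lifting the limit on name span also changed no chosen name. Within those limits 7 ratios still crossed 1. With circRNAs of both libraries these were all adhesion and guidance circRNAs together (1.01), classical cadherins (1.02), neurexins (1.15) and latrophilins (1.01). Without the most read circRNA they were classical cadherins (1.06) and semaphorins (0.782), and with TMM Eph receptors (0.997). Semaphorins moved by over 1.5 times, to 0.782 and 2.15. Counts of 10 to 20 reads allow wide ratios, so differences well above 2-fold could also miss the size rule. The largest Unc5d circRNA, at 10 reads in all, missed it with a ratio of 3.35 (0.764 to 20.0). An Ncam2 circRNA (20474484 to 20504631) with a total of 13 missed it at 0.261 (0.0281 to 1.19). By contrast, a Cdh18 circRNA (74585593 to 74617289), also at 10 in all, met it at 5.74 (1.14 to 55.4). Differences under 2-fold were outside the rule by its definition.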
